A study of Mus musculus with 7 samples.

Results

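Glioblastomas that take on a mesenchymal character express a set of genes otherwise used by connective tissue and wound-healing cells, and 37 genes of this kind, together with YAP and its targets, were followed in mouse high-grade gliomas. The 37 names were matched by symbol to the Ensembl identifiers of the 7 files. Of the 37, 36 had a row among the 17422 genes listed, and Chi3l1 was not analysed here. The samples were 3 PDGF-B-labelled gliomas, 3 EGFRvIII-labelled gliomas and 1 neural progenitor culture carrying PDGF-B. PDGF-B-labelled gliomas grew from wild-type Balb/c embryonic precursors (embryonic day 14) that had received retroviral PDGF-B, the ligand of the PDGF receptors, and DsRed, a red fluorescent protein. EGFRvIII-labelled gliomas grew from Ink/Arf -/- Balb/c precursors of the same day that had received retroviral EGFRvIII, a truncated active EGF receptor, and DsRed. In both models 20000 transduced cells were placed intracranially in adult BALB/c hosts following 10 days in medium with EGF and bFGF, and tumours were taken at the first neurological symptoms and sorted for DsRed. The culture held wild-type Balb/c precursors of embryonic day 14 that carried PDGF-B and were sorted for DsRed without having been grafted. Oncogene and genotype therefore differ together between the glioma groups, and growth as a tumour differs as well from the culture. No source used here gives the age of the hosts beyond adult. The 3 gliomas of each group are labelled as biological replicates.

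Levels are given in CPM, read counts scaled to the size of the library, and between 32513755 and 39062585 reads per library lay behind the deposited values. The driver genes went against the labels of all 6 gliomas. Egfr stood at 4952, 5109 and 3594 CPM in PDGF-B-labelled replicates 1 to 3, against 41.2, 26.9 and 25.6 CPM in EGFRvIII-labelled gliomas. Pdgfb stood at 1.95, 2.97 and 4.88 CPM in PDGF-B-labelled gliomas, against 386, 284 and 277 CPM in EGFRvIII-labelled gliomas and 245 CPM in the culture. Cdkn2a, the gene of the Ink4a/Arf locus, stood at 3.52, 2.94 and 4.99 CPM in PDGF-B-labelled gliomas of wild-type precursors, against 22.7, 26.1 and 11.1 CPM in EGFRvIII-labelled gliomas of Ink/Arf -/- precursors and 10.7 CPM in the culture, and it also went against the labels (log2 fold change -2.31 ± 0.39, SE, adjusted p = 0.0318). No source used here says which part of the locus is deleted. No library was moved to another group, and every direction below refers to gliomas as labelled. Replicate 3 labelled PDGF-B was the highest of its group in 26 of the 36 genes, in some of them by little. Calls of the 36 genes between the glioma groups that rest on it are given with and without it. Some calls against the culture that were made only without it are named without values. Replicate 3 was singled out after its values in these genes were seen, so calls made without it are description.

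The mesenchymal state of glioma is known from human tumours, where STAT3 and C/EBP beta, with FOSL2, RUNX1 and BHLHE40, were described as the transcription factors that hold it, and where CD44 and YKL-40 (the product of CHI3L1) mark it. Many of its genes, among them those of galectins, annexins and the urokinase receptor, are also expressed by macrophages. YAP (Yap1) and TAZ (Wwtr1) are coactivators that the Hippo kinases keep out of the nucleus; in the nucleus they bind TEAD factors and switch on targets such as Ccn1 and Ccn2. In the normal brain YAP is known from neural stem cells and astrocytes.

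RefSeq promoters (GRCm38.p6) span 250 bases before to 50 bases after the gene start and were found for 27 of the 36 measured genes, in 31 entries. They are shown for 3 genes of the YAP pathway that had lower values in all gliomas than in the culture and for Cav2, which had higher ones. Capitals mark GGAATG, the letters that TEAD factors bind, or CATTCC, the same letters on the other strand, and in Cav2 the AP-1 motif TGANTCA.
Ccn1: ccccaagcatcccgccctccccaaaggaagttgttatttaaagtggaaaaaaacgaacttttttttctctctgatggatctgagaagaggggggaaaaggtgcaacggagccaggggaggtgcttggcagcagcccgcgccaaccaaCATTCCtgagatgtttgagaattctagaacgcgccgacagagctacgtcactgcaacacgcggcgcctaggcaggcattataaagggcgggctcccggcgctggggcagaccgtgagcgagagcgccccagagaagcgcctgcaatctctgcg
Yap1: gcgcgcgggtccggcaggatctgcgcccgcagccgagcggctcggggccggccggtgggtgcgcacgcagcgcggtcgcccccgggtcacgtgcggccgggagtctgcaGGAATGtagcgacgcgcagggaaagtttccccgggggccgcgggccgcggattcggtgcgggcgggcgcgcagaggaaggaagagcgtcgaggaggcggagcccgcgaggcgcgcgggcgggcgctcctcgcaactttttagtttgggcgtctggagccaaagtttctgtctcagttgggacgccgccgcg
Wwtr1: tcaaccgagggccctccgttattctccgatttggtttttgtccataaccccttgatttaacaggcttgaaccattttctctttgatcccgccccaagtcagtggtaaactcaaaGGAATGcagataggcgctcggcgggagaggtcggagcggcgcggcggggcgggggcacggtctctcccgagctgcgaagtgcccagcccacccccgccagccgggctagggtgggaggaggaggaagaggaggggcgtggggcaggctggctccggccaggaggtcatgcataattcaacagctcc
Cav2: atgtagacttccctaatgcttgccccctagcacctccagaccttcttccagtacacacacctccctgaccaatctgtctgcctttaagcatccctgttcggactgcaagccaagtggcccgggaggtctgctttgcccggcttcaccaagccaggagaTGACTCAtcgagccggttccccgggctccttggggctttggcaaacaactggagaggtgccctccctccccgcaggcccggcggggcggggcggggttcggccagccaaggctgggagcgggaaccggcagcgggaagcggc
The Ccn1 promoter lies at chr3:145649936-145650235 on the minus strand, with its match beginning 103 bases before the start. That of Yap1 lies at chr9:8004547-8004846 on the minus strand, with its match 141 bases before the start. The Wwtr1 entry shown, the first of 2, lies at chr3:57575861-57576160 on the minus strand, with its match 136 bases before the start. The Cav2 promoter lies at chr6:17280935-17281234 on the plus strand, and its AP-1 match begins 92 bases before the start. Of all 32851 promoter entries, 14.7% held the TEAD letters on either strand, against 9 of the 31 entries of the genes followed here (29.0%). These 9 entries belonged to 8 of the 27 genes: Wwtr1, Ccn1, Itgb1, Yap1, Stat3, Runx1, Anxa1 and Timp1. Wwtr1 was counted with 2 entries, which overlap. The AP-1 letters stood in 7.81% of all entries and in 4 of the 31 (12.9%), those of S100a11, Cav2, Plaur and Anxa2. Neither motif contains the other. These matches describe letters in the sequence, not binding, and were counted without a test.

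The culture was used to tell genes that neural progenitors made themselves from genes near zero in them. It was nearly free of microglial RNA: of the defining markers, Cx3cr1 stood at 0.145 CPM, Csf1r at 0.434 CPM, P2ry12 at 1.53 CPM, and C1qa and Tmem119 at 0.0289 CPM, which is 1 read in this library. At 10 CPM or more in the culture, 25 of the 36 genes were made by it. Only Tgfbi and Anxa1 were near zero, under 1 CPM, and the other 9 lay between both limits. Just inside the upper limit was Lgals3 at 10.2 CPM and just outside it Fosl1 at 9.61 CPM. Just inside the lower limit was Anxa1 at 0.955 CPM, and just outside it were Runx1 at 1.05 CPM and Plau at 1.10 CPM. Among the genes between the limits, Cebpb stood at 1.72 CPM, Emp3 at 3.33 CPM, Runx2 at 3.56 CPM, Plaur at 3.59 CPM, S100a4 at 5.41 CPM and Relb at 6.92 CPM in the culture.

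Gliomas labelled PDGF-B were compared with EGFRvIII-labelled gliomas in limma, with p-values adjusted over all 17422 genes by the Benjamini-Hochberg method and a threshold of 0.05. Of the 36 genes, only Plau fell in PDGF-B-labelled gliomas, and none rose; the test called 3.35% of all genes, 2.63% as lower and 0.717% as higher. Without adjustment 13 genes had a p under 0.05 as lower and 3 as higher, against 10.2% and 6.49% of all genes and 16.7% in either direction. The 3 and 3 gliomas did not overlap in 14 of the 36 genes, with those labelled PDGF-B lower in 11 and higher in 3, against 12.6% and 10.3% of all genes and 22.9% in either direction. Of the genes made by the culture 5 of 25 were lower without overlap, of those between the limits 5 of 9, and of those near zero 1 of 2, where 9.84%, 11.7% and 21.8% of all genes of each class were. The median log2 fold change of the 36 genes was -0.62, against 0.00 for all genes. Each glioma group was also set against the culture, with the same culture library in both comparisons. That library has no replicate, and its spread was taken to equal that of the gliomas. In PDGF-B-labelled gliomas, 2 genes rose (Runx1 and Cav2) and 1 fell (Ccn1), where the test called 9.45% of all genes, 7.73% as higher and 1.73% as lower. In EGFRvIII-labelled gliomas, 6 genes rose (Runx1, Cebpb, Tgfbi, Plau, Socs3 and Cav2) and 2 fell (Tead1 and Ccn1), where it called 9.55% of all genes, 8.2% as higher and 1.34% as lower. With each library shifted to the same median, the calls over all genes in this last comparison split into 1208 higher and 452 lower, against 1429 and 234 as deposited. All 6 gliomas lay below the culture in 13 of the 36 genes and above it in 8, where 24% and 27.8% of all genes did.

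**Figure D1:**
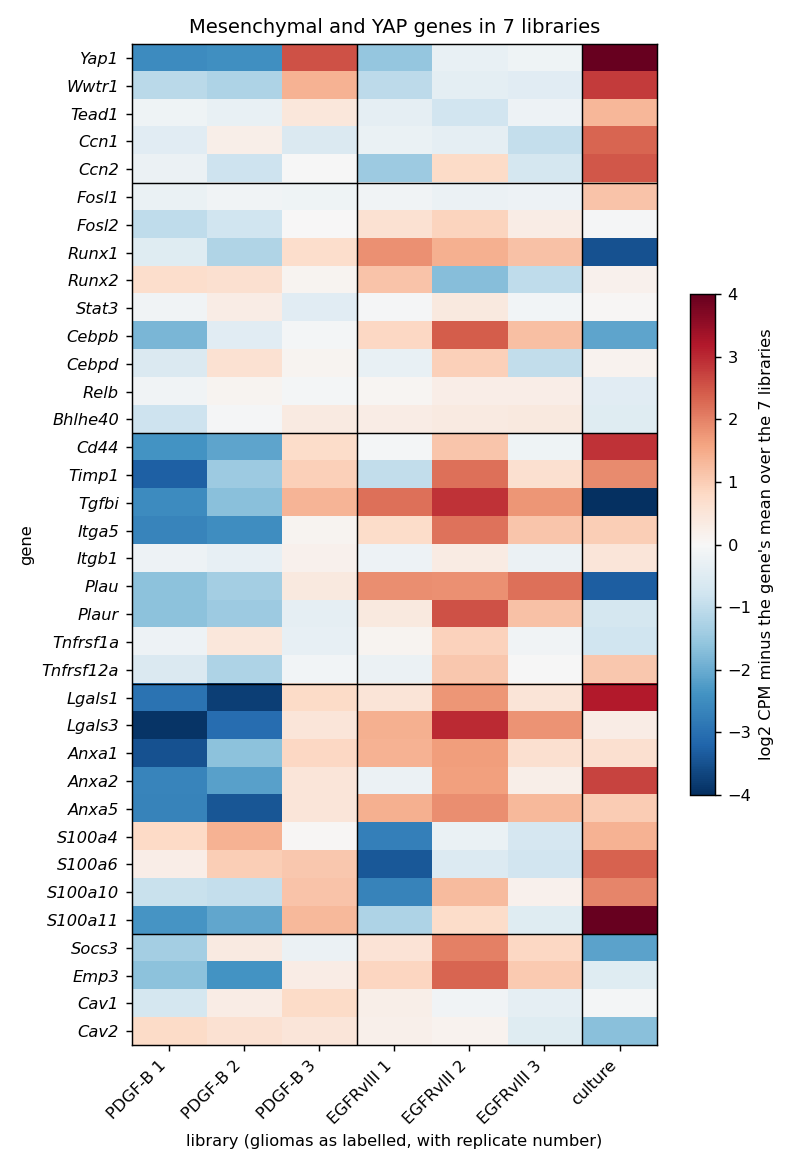
Heat map of the 36 measured genes (rows, grouped by role from top to bottom: YAP pathway, transcription factors, receptors with adhesion and proteolysis, galectins with annexins and S100 proteins, and membrane and feedback genes) in the 7 libraries (columns). Colour gives log2 CPM minus the gene's mean over the 7 libraries, cut at 4 in either direction. Replicate 3 labelled PDGF-B differs from replicates 1 and 2 of its group. In the culture 13 of the 36 genes are highest, among them Yap1, Wwtr1, Tead1, Ccn1 and Ccn2, where 24% of all genes are.

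The 5 genes of the YAP pathway among the 36 (Yap1, Wwtr1, Tead1, Ccn1 and Ccn2) were lower in every glioma than in the culture. Of all genes, 24% were lower in all 6 gliomas, and further YAP and TEAD targets, given below, went both ways. Yap1, which encodes the coactivator YAP, stood at 0.320, 0.333 and 12.4 CPM in PDGF-B-labelled replicates 1 to 3, at 0.688, 1.70 and 1.85 CPM in replicates 1 to 3 labelled EGFRvIII, and at 46.9 CPM in the culture. These levels rest on 11, 11 and 444 reads in PDGF-B-labelled gliomas, on 24, 57 and 68 reads in EGFRvIII-labelled gliomas, and on 1620.1 reads in the culture. A single glioma, replicate 3 labelled PDGF-B, thus held more Yap1 RNA than the other 5, and its level was still below that of the culture. The log2 fold change of Yap1 against the culture was -5.26 ± 1.86 (SE, adjusted p = 0.125) in PDGF-B-labelled gliomas and -5.11 ± 1.86 (SE, adjusted p = 0.145) in EGFRvIII-labelled gliomas. Without PDGF-B replicate 3 it was -6.93 ± 0.72 (SE, adjusted p = 0.00229) for PDGF-B-labelled gliomas, and past the threshold as well for EGFRvIII-labelled gliomas (limma adjusted p = 0.00436). A fit of the EGFRvIII gliomas and the culture alone also called Yap1 and Wwtr1 lower (limma adjusted p = 0.00646 and 0.00353).

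Wwtr1, which encodes TAZ, stood at 7.51, 6.70 and 41.3 CPM in PDGF-B-labelled gliomas, at 7.63, 12 and 11.6 CPM in EGFRvIII-labelled gliomas, and at 111 CPM in the culture. The order of the libraries resembled that of Yap1, with replicate 3 labelled PDGF-B again between the other gliomas and the culture. Neither fold change against the culture passed with all gliomas, at -3.12 ± 0.95 (SE, adjusted p = 0.0851) for PDGF-B and -3.44 ± 0.95 (SE, adjusted p = 0.0678) for EGFRvIII. Without PDGF-B replicate 3 they were -3.96 ± 0.40 (SE, adjusted p = 0.00212) and past the threshold for EGFRvIII (limma adjusted p = 0.00196). Tead1, a DNA-binding partner of YAP and TAZ, stood at 93.1, 86.1 and 144 CPM in PDGF-B-labelled gliomas, at 82.9, 61.9 and 90.7 CPM in EGFRvIII-labelled gliomas, and at 265 CPM in the culture. It fell against the culture in EGFRvIII-labelled gliomas (log2 fold change -1.77 ± 0.36, SE, adjusted p = 0.0235, but 0.0575 without EGFRvIII replicate 1). In PDGF-B-labelled gliomas its log2 fold change was -1.33 ± 0.36 (SE, adjusted p = 0.0621, and 0.0211 without PDGF-B replicate 3).

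The target gene Ccn1, which encodes a secreted matrix protein, stood at 42.8, 68.3 and 39.3 CPM in PDGF-B-labelled gliomas, at 48.8, 45 and 30.2 CPM in EGFRvIII-labelled gliomas, and at 295 CPM in the culture. All gliomas lay within a narrow range below the culture, and replicate 3 labelled PDGF-B did not stand out. Ccn1 fell against the culture in PDGF-B-labelled gliomas (log2 fold change -2.60 ± 0.40, SE, adjusted p = 0.00917) and in EGFRvIII-labelled gliomas (-2.86 ± 0.40, SE, adjusted p = 0.00500). Both calls stood in each of the 6 fits that left out 1 glioma. Ccn2, a related secreted target, stood at 2.03, 1.30 and 2.35 CPM in PDGF-B-labelled gliomas, at 0.830, 4.07 and 1.43 CPM in EGFRvIII-labelled gliomas, and at 13.7 CPM in the culture. Its log2 fold changes were -2.86 ± 0.84 (SE, adjusted p = 0.0795) and -2.97 ± 0.84 (SE, adjusted p = 0.0746), both past the threshold without EGFRvIII replicate 2 (limma adjusted p = 0.0297 and 0.0209). Per kilobase of exon, Ccn1 was at 146 CPM per kb in the culture, followed by Wwtr1 at 23.3, Tead1 at 19.5, Yap1 at 5.07 and Ccn2 at 4.80 CPM per kb. None of the 5 genes passed between the glioma groups, with limma adjusted p from 0.430 to 0.963. In these sorted bulk samples, fewer cells of a type and less RNA per cell cannot be told apart.

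**Figure D2:**
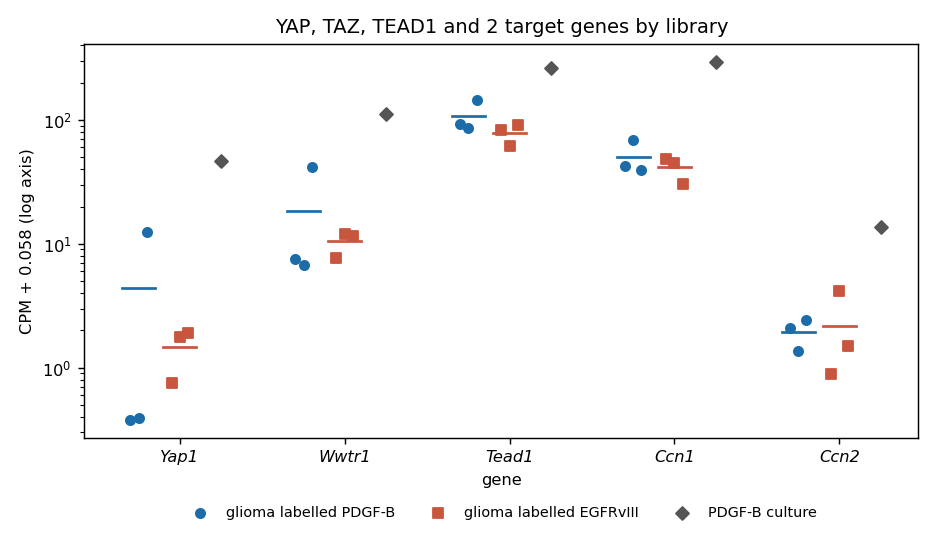
Levels of Yap1, Wwtr1, Tead1, Ccn1 and Ccn2 in CPM plus the deposited floor (log axis) in each library; circles are PDGF-B-labelled gliomas, squares EGFRvIII-labelled gliomas, diamonds the culture, and lines the group means. All 6 gliomas lie below the culture for each gene, and PDGF-B replicate 3 is the highest glioma for Yap1 at 12.4 CPM and Wwtr1 at 41.3 CPM.

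Some astrocyte markers were highest of their group in PDGF-B replicate 3, as were Yap1 and Wwtr1, and others were lowest there; their part in its values was not tested. The mean log2 CPM of 11 astrocyte genes, all measured, was 4.81, 5.46 and 7.13 in PDGF-B-labelled replicates 1 to 3, 5.65, 6.73 and 6.50 in EGFRvIII-labelled gliomas, and 6.71 in the culture. Their summed level ran from 2702 to 4552 CPM in PDGF-B-labelled gliomas and from 8964 to 13393 CPM in EGFRvIII-labelled gliomas, where Apoe, which macrophages also express, made up most of it, and was 2488 CPM in the culture. Among PDGF-B-labelled gliomas, Gfap, Aqp4, Aldh1l1, Slc1a3, Gja1, Sox9 and Apoe were highest in replicate 3, Slc1a2, Aldoc and S100b were lowest in it, and Glul lay between the other two. Slc1a2, the main glutamate transporter of astrocytes, stood at 1469, 1619 and 656 CPM in PDGF-B-labelled gliomas, at 827, 611 and 834 CPM in EGFRvIII-labelled gliomas, and at 190 CPM in the culture. Between the glioma groups 1 astrocyte gene was called higher and 1 lower, where 0.717% and 2.63% of all genes were. S100b, a calcium-binding protein, rose in PDGF-B-labelled gliomas, at 88.2, 82.4 and 61.4 CPM against 23.9, 10.6 and 15.0 CPM in EGFRvIII-labelled gliomas and 0.939 CPM in the culture (log2 fold change 2.29 ± 0.32, SE, adjusted p = 0.0250). Apoe, the lipid carrier apolipoprotein E, fell, at 367, 663 and 2438 CPM in PDGF-B-labelled gliomas against 10002, 11259.6 and 6981 CPM in EGFRvIII-labelled gliomas and 129 CPM in the culture (-3.46 ± 0.65, SE, adjusted p = 0.0387). No astrocyte gene was at 0 in any library.

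The Hippo kinases and further TEAD partners, of which 13 of 15 were measured, had none called between the glioma groups, where 3.35% of all genes were. Before adjustment 3 had a limma p under 0.05, against 16.7% of all genes. The median log2 fold change of the 13 was 0.019. Mob1a, an activator of the LATS kinases, stood at 76.9, 69.5 and 87.9 CPM in PDGF-B-labelled gliomas, against 117, 150 and 106 CPM in EGFRvIII-labelled gliomas. Tead3, a TEAD factor, stood at 6.73, 17.3 and 9.85 CPM against 3.84, 3.98 and 5.72 CPM in the same order. Against the culture, Amot, an angiomotin, and Wwc1, which encodes KIBRA, were called lower in both glioma groups. Of all genes, 1.73% were called lower in PDGF-B-labelled gliomas and 1.34% in EGFRvIII-labelled gliomas. Amot lay between 6.25 and 14.2 CPM in all gliomas, with 41.1 CPM in the culture, and Wwc1 between 50.1 and 88.8 CPM, with 228 CPM in the culture. Tead2, another TEAD factor, was named after its values were seen: it stood at 0, 0.0303 and 7.81 CPM in PDGF-B-labelled gliomas, at 0.143, 0.448 and 0.463 CPM in EGFRvIII-labelled gliomas, and at 58.3 CPM in the culture. Of 20 measured further YAP and TEAD targets out of 22 listed, Amotl2, an angiomotin that restrains YAP, rose in PDGF-B-labelled gliomas and Nuak2, a kinase, fell. The test called 0.717% of all genes as higher and 2.63% as lower. Amotl2 stood at 42.0, 52.9 and 44.9 CPM in PDGF-B-labelled gliomas, against 24.2, 21.1 and 27.4 CPM in EGFRvIII-labelled gliomas (log2 fold change 0.94 ± 0.19, SE, adjusted p = 0.0436). Nuak2 stood at 0.670, 1.36 and 1.99 CPM in PDGF-B-labelled gliomas, against 7.83, 14.8 and 9.76 CPM in EGFRvIII-labelled gliomas (log2 fold change -3.03 ± 0.47, SE, adjusted p = 0.0280). The Amotl2 call ended in each of the 6 fits that left out 1 glioma, and the Nuak2 call in all of them except that without PDGF-B replicate 3, with limma adjusted p of up to 0.169 and 0.110. Of the 20 targets, 10 had a limma p under 0.05 before adjustment, against 16.7% of all genes, in both directions, and their median log2 fold change was 0.11. Against the culture, these targets had 1 called higher (Nt5e) and 1 lower (Ajuba) in PDGF-B-labelled gliomas, with a median log2 fold change of 0.15. In EGFRvIII-labelled gliomas 2 were higher (Axl and Nt5e) and 2 lower (Fjx1 and Arhgef17), with a median of -0.47. The shares of all genes were 7.73% higher and 1.73% lower, then 8.2% and 1.34%. Nt5e lay between 138 and 204 CPM in all gliomas, with 21.5 CPM in the culture. Axl lay between 50.1 and 381 CPM, with 32.9 CPM in the culture. Ajuba went the other way, between 0.0874 and 0.736 CPM, with 6.83 CPM in the culture.

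Among the transcription factors of the mesenchymal state, Stat3 was abundant in every library and 3 factors had values that did not overlap between the glioma groups. Stat3, the factor activated by interleukin-6 family cytokines, stood at 298, 405 and 241 CPM in PDGF-B-labelled gliomas, at 323, 436 and 304 CPM in EGFRvIII-labelled gliomas, and at 344 CPM in the culture. The groups overlapped, with a log2 fold change of -0.19 ± 0.26 between the glioma groups (SE, adjusted p = 0.726). Cebpb, which encodes C/EBP beta, stood at 2.06, 5.46 and 7.21 CPM in PDGF-B-labelled gliomas, at 13.5, 40.4 and 17.6 CPM in EGFRvIII-labelled gliomas, and at 1.72 CPM in the culture. All EGFRvIII-labelled gliomas lay above every PDGF-B-labelled one, and the culture lay below every glioma. Cebpb did not pass between the glioma groups (log2 fold change -2.28 ± 0.57, SE, adjusted p = 0.0896, and 0.0484 without PDGF-B replicate 3). It rose against the culture in EGFRvIII-labelled gliomas (log2 fold change 3.58 ± 0.82, SE, adjusted p = 0.0364), a call that ended without any single one of the 3 EGFRvIII gliomas (limma adjusted p up to 0.0822).

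Runx1, a Runt-domain factor also used in blood cells, stood at 8.94, 5.39 and 20.4 CPM in PDGF-B-labelled gliomas, at 44.6, 33.8 and 28.3 CPM in EGFRvIII-labelled gliomas, and at 1.05 CPM in the culture. Replicate 3 was the highest glioma labelled PDGF-B, the groups did not overlap, and every glioma lay above the culture. Runx1 rose against the culture in PDGF-B-labelled gliomas (log2 fold change 3.18 ± 0.67, SE, adjusted p = 0.0297) and in EGFRvIII-labelled gliomas (4.98 ± 0.67, SE, adjusted p = 0.00463). The first of these calls ended without PDGF-B replicate 1 or without any EGFRvIII glioma (limma adjusted p up to 0.0668), and the second stood in all 6 such fits. The first also ended in a fit of these 2 groups alone and with voom weights (limma adjusted p = 0.0963 and 0.133). Between the glioma groups its log2 fold change was -1.81 ± 0.47 (SE, adjusted p = 0.0967, and 0.00879 without PDGF-B replicate 3). Fosl2, an AP-1 subunit, stood at 19.6, 22.8 and 40.5 CPM in PDGF-B-labelled gliomas, at 60.3, 74.1 and 49.2 CPM in EGFRvIII-labelled gliomas, and at 38.7 CPM in the culture (log2 fold change between gliomas -1.20 ± 0.31, SE, adjusted p = 0.0918, and 0.0147 without PDGF-B replicate 3).

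The other factors had overlapping values in the glioma groups and did not pass. Fosl1, the AP-1 subunit FRA1, lay between 3.61 and 3.97 CPM in PDGF-B-labelled gliomas and between 3.65 and 3.93 CPM in EGFRvIII-labelled gliomas, with 9.61 CPM in the culture. Bhlhe40, a basic helix-loop-helix repressor, stood at 41.4, 71.3 and 95.9 CPM in PDGF-B-labelled gliomas, against 90.8, 95.2 and 97.0 CPM in EGFRvIII-labelled gliomas and 53.0 CPM in the culture. Relb, a subunit of the non-canonical NF-kappaB pathway, averaged 9.12 ± 0.83 CPM in PDGF-B-labelled gliomas and 10.8 ± 0.76 CPM in EGFRvIII-labelled gliomas (SD, n = 3 each), with 6.92 CPM in the culture. Cebpd, which encodes C/EBP delta, averaged 19.6 ± 7.74 CPM in PDGF-B-labelled gliomas and 19.6 ± 13.7 CPM in EGFRvIII-labelled gliomas (SD, n = 3 each). Runx2, a Runt factor known from bone, averaged 4.50 ± 0.97 CPM in PDGF-B-labelled gliomas and 3.17 ± 3.38 CPM in EGFRvIII-labelled gliomas (SD, n = 3 each). Exons of Cebpb, Cebpd, Fosl1 and Stat3 overlap those of another listed gene on the opposite strand. Those of Yap1, Ccn2, Runx1, Runx2, Anxa2 and Bhlhe40 overlap opposite-strand genes that are not among the genes listed. No source used here says whether counting used strand.

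Urokinase and its receptor had the lowest adjusted p-values of the 36 genes between the glioma groups. Plau, the secreted protease urokinase, stood at 3.64, 4.39 and 15.0 CPM in PDGF-B-labelled gliomas, at 42.0, 40.9 and 53.4 CPM in EGFRvIII-labelled gliomas, and at 1.10 CPM in the culture. The groups did not overlap, and the culture lay below every glioma. Plau fell in PDGF-B-labelled gliomas relative to EGFRvIII-labelled gliomas (log2 fold change -2.84 ± 0.51, SE, adjusted p = 0.0349), lower in 3 of 3 gliomas. The call ended without trend and robust moderation (limma adjusted p = 0.0624) and when any glioma but PDGF-B replicate 3 was left out (limma adjusted p up to 0.144), and without that replicate the log2 fold change was -3.48 ± 0.25 (SE, adjusted p = 0.00164). Against the culture Plau rose in EGFRvIII-labelled gliomas (5.29 ± 0.74, SE, adjusted p = 0.00512), in all 6 fits that left out 1 glioma. In PDGF-B-labelled gliomas the log2 fold change against the culture was 2.44 ± 0.74 (SE, adjusted p = 0.0836, and 0.0237 without PDGF-B replicate 3).

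Plaur, the receptor that holds urokinase at the cell surface, stood at 1.83, 2.09 and 4.57 CPM in PDGF-B-labelled gliomas, at 7.71, 34.5 and 13.3 CPM in EGFRvIII-labelled gliomas, and at 3.59 CPM in the culture. All EGFRvIII-labelled gliomas lay above every PDGF-B-labelled one (log2 fold change -2.53 ± 0.60, SE, adjusted p = 0.0754, and 0.0385 without PDGF-B replicate 3). Tgfbi, a secreted adhesion protein induced by TGF-beta, stood at 1.22, 2.24 and 18.4 CPM in PDGF-B-labelled gliomas, at 33.6, 53.6 and 24.7 CPM in EGFRvIII-labelled gliomas, and at 0.376 CPM in the culture. It rose against the culture in EGFRvIII-labelled gliomas (log2 fold change 6.35 ± 1.31, SE, adjusted p = 0.0247, but up to 0.0686 without any single EGFRvIII glioma). Between the glioma groups Tgfbi had a log2 fold change of -3.23 ± 0.92 (SE, adjusted p = 0.126, and 0.00287 without PDGF-B replicate 3). Timp1, an inhibitor of matrix metalloproteinases, stood at 0.350, 1.36 and 7.59 CPM in PDGF-B-labelled gliomas, at 1.92, 17.9 and 6.11 CPM in EGFRvIII-labelled gliomas, and at 14.6 CPM in the culture, with overlapping groups.

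Cd44, the hyaluronan receptor that marks mesenchymal glioma cells, was made by the culture at 278 CPM and was lower in every glioma. It stood at 7.08, 8.73 and 63.2 CPM in PDGF-B-labelled gliomas and at 36, 82.1 and 33.4 CPM in EGFRvIII-labelled gliomas. Against the culture its log2 fold change was -4.13 ± 1.15 in PDGF-B-labelled gliomas (SE, limma adjusted p = 0.0684). In EGFRvIII-labelled gliomas it was -2.59 ± 1.15 (SE, limma adjusted p = 0.228), and neither passed with all gliomas. Replicate 3 labelled PDGF-B lay within the range of the EGFRvIII group, so the groups overlapped (log2 fold change -1.55 ± 0.82, SE, adjusted p = 0.391). Without that replicate the log2 fold change was -2.55 ± 0.42 (SE, adjusted p = 0.0161). Itga5, the fibronectin-binding integrin alpha 5, stood at 2.07, 2.30 and 14.4 CPM in PDGF-B-labelled gliomas, at 22.3, 60.5 and 28.9 CPM in EGFRvIII-labelled gliomas, and at 26.2 CPM in the culture. The groups did not overlap (log2 fold change -3.03 ± 0.77, SE, adjusted p = 0.0897, and 0.00411 without PDGF-B replicate 3). Its partner Itgb1, integrin beta 1, was far steadier, at 380, 355 and 498 CPM in PDGF-B-labelled gliomas, 382, 556 and 375 CPM in EGFRvIII-labelled gliomas, and 612 CPM in the culture. Tnfrsf1a, the TNF receptor, averaged 141 ± 42.6 CPM in PDGF-B-labelled gliomas and 181 ± 73.8 CPM in EGFRvIII-labelled gliomas (SD, n = 3 each), with 80.5 CPM in the culture. Tnfrsf12a, the receptor of TWEAK, averaged 12.4 ± 4.68 CPM in PDGF-B-labelled gliomas and 24.2 ± 12.8 CPM in EGFRvIII-labelled gliomas (SD, n = 3 each), with 38.7 CPM in the culture.

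Galectins and annexins were low in replicates 1 and 2 labelled PDGF-B and higher in replicate 3. Lgals3, galectin 3, which macrophages also make, stood at 0.495, 0.970 and 11.9 CPM in PDGF-B-labelled gliomas, at 22.6, 67.1 and 29.0 CPM in EGFRvIII-labelled gliomas, and at 10.2 CPM in the culture. The groups did not overlap (log2 fold change -4.22 ± 1.09, SE, adjusted p = 0.0940, and 0.00280 without PDGF-B replicate 3). Lgals1, galectin 1, stood at 4.49, 2.48 and 59.5 CPM in PDGF-B-labelled gliomas, at 49.6, 117 and 49.4 CPM in EGFRvIII-labelled gliomas, and at 313 CPM in the culture. Here replicate 3 lay inside the range of the EGFRvIII group, and all gliomas lay below the culture (log2 fold change between gliomas -2.90 ± 1.09, SE, adjusted p = 0.240, and 0.00376 without PDGF-B replicate 3). Anxa5, a phosphatidylserine-binding annexin, stood at 2.74, 1.63 and 25.0 CPM in PDGF-B-labelled gliomas, at 47.8, 65.6 and 43.9 CPM in EGFRvIII-labelled gliomas, and at 36.5 CPM in the culture. It was the only one of the 36 genes in which all gliomas of each group lay on opposite sides of the culture, and the difference between the groups did not pass (log2 fold change -3.40 ± 0.91, SE, adjusted p = 0.107, and 0.00164 without PDGF-B replicate 3).

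Anxa2, an annexin that forms a complex with S100a10 at the membrane, stood at 2.16, 3.03 and 19.2 CPM in PDGF-B-labelled gliomas, at 11.6, 42.7 and 16.1 CPM in EGFRvIII-labelled gliomas, and at 90.5 CPM in the culture. Its call between the glioma groups was made without PDGF-B replicate 3 alone (log2 fold change -2.94 ± 0.57, SE, adjusted p = 0.0291), against -1.98 ± 0.86 with it (SE, adjusted p = 0.307). Anxa1, a mediator of the resolution of inflammation, was scarce everywhere, at 0, 0.152 and 1.09 CPM in PDGF-B-labelled gliomas, 1.63, 2.00 and 0.954 CPM in EGFRvIII-labelled gliomas, and 0.955 CPM in the culture. It rests on at most 67 reads in a library. Between the glioma groups the log2 fold change of Anxa1 was -2.66 ± 1.03 (SE, limma adjusted p = 0.253). Without PDGF-B replicate 3 it was -3.79 ± 0.72 (SE, limma adjusted p = 0.0273).

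Of the S100 genes, small calcium-binding proteins encoded in a cluster on chromosome 3, S100a4 and S100a6 had higher values in all PDGF-B-labelled gliomas than in EGFRvIII-labelled ones, and S100a10 and S100a11 had overlapping values. S100a4 stood at 3.58, 5.46 and 2.10 CPM in PDGF-B-labelled gliomas, at 0.258, 1.69 and 1.26 CPM in EGFRvIII-labelled gliomas, and at 5.41 CPM in the culture. Its exons overlap those of Gm42674, a protein-coding gene on the same strand that is not among the genes listed, and how shared reads were counted is not known. S100a6 stood at 2.83, 4.67 and 5.01 CPM in PDGF-B-labelled gliomas, at 0.172, 1.58 and 1.36 CPM in EGFRvIII-labelled gliomas, and at 12.2 CPM in the culture. Neither S100a4 nor S100a6 passed (log2 fold changes 1.96 ± 0.71 and 2.34 ± 0.77, SE, adjusted p = 0.221 and 0.180). S100a10 stood at 9.12, 8.67 and 37.6 CPM in PDGF-B-labelled gliomas, at 2.61, 40.9 and 19.1 CPM in EGFRvIII-labelled gliomas, and at 66.0 CPM in the culture. S100a11 stood at 1.08, 1.33 and 14.5 CPM in PDGF-B-labelled gliomas, at 2.47, 9.75 and 4.12 CPM in EGFRvIII-labelled gliomas, and at 103 CPM in the culture. Its log2 fold change against the culture was -5.18 ± 1.41 in PDGF-B-labelled gliomas (SE, adjusted p = 0.0642, and 0.00403 without PDGF-B replicate 3). In EGFRvIII replicate 1 all 4 S100 genes were at their lowest of the EGFRvIII group.

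**Figure D3:**
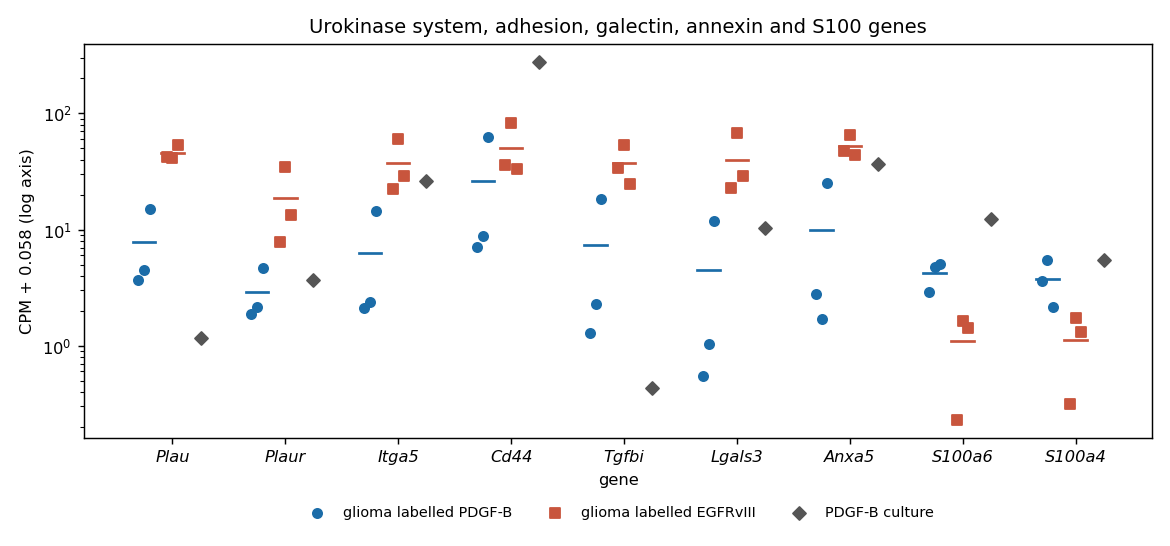
Levels of 9 genes of the urokinase system, adhesion, galectins, annexins and S100 proteins in CPM plus the deposited floor (log axis) in each library; circles are PDGF-B-labelled gliomas, squares EGFRvIII-labelled gliomas, diamonds the culture, and lines the group means. Plau separates the groups at 3.64 to 15.0 CPM against 40.9 to 53.4 CPM, while S100a4 and S100a6 are higher in PDGF-B-labelled gliomas.

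Of the remaining genes, Cav2 rose in both glioma groups against the culture. Cav2, a caveolin, stood at 138, 125 and 114 CPM in PDGF-B-labelled gliomas, at 93.7, 89.6 and 58.5 CPM in EGFRvIII-labelled gliomas, and at 25.8 CPM in the culture. The log2 fold change against the culture was 2.28 ± 0.31 in PDGF-B-labelled gliomas (SE, adjusted p = 0.00668) and 1.61 ± 0.31 in EGFRvIII-labelled gliomas (SE, adjusted p = 0.02, but 0.0533 without EGFRvIII replicate 1). The glioma groups did not overlap, but their difference of 0.67 ± 0.22 on the log2 scale did not pass (SE, adjusted p = 0.184). Cav1, the neighbouring gene and partner caveolin, averaged 69.5 ± 32.0 CPM in PDGF-B-labelled gliomas and 56.1 ± 12.4 CPM in EGFRvIII-labelled gliomas (SD, n = 3 each), with 56.1 CPM in the culture, and its groups overlapped. Socs3, the feedback inhibitor induced by STAT3, stood at 28.8, 95.9 and 63.0 CPM in PDGF-B-labelled gliomas, at 109, 301 and 133 CPM in EGFRvIII-labelled gliomas, and at 16.9 CPM in the culture. Socs3 rose against the culture in EGFRvIII-labelled gliomas (log2 fold change 3.27 ± 0.74, SE, adjusted p = 0.0341, but up to 0.0734 without any single EGFRvIII glioma). With voom weights the calls of Socs3, Cebpb and Tgfbi against the culture ended (limma adjusted p = 0.0809, 0.118 and 0.130). Between the glioma groups the Socs3 values did not overlap and did not pass (log2 fold change -1.55 ± 0.52, SE, adjusted p = 0.192). Emp3, a small membrane protein, stood at 1.46, 0.848 and 5.83 CPM in PDGF-B-labelled gliomas, at 8.66, 23.8 and 9.73 CPM in EGFRvIII-labelled gliomas, and at 3.33 CPM in the culture (log2 fold change between gliomas -2.66 ± 0.73, SE, adjusted p = 0.115, and 0.0131 without PDGF-B replicate 3).

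Replicate 3 labelled PDGF-B exceeded replicates 1 and 2 of its group in 26 of the 36 genes, against 39.5% of all genes. Without it, 14 genes were called lower in PDGF-B-labelled gliomas than in EGFRvIII-labelled gliomas, and none higher, in a fit that called 7.36% of all genes, 5.59% as lower and 1.77% as higher. The 14 were Cd44, Fosl2, Runx1, Cebpb, Tgfbi, Lgals1, Lgals3, Anxa1, Anxa2, Anxa5, Itga5, Plau, Plaur and Emp3. This fit has 2 PDGF-B-labelled gliomas and 3 labelled EGFRvIII. Replicate 3 was picked for it after its values in these genes were seen, so its calls are no separate test. None of the 14 was called when any other single glioma was left out. Of the 25 genes made by the culture, 7 were among them, where 2.22% of all genes made by the culture were called lower. Of the 9 genes between the limits 5 were among them, where 5.29% of all such genes were called, and of the 2 near zero both were, where 16% of all such genes were called. With all 6 gliomas, the counts were 0 of 25, 1 of 9 and 0 of 2, where 0.901%, 2.4% and 8.05% of all genes of each class were called lower. The median log2 fold change of the 36 genes was -1.35 without replicate 3. Against the culture, PDGF-B-labelled gliomas without replicate 3 had 3 genes higher (Runx1, Plau and Cav2) and 11 lower (Cd44, Lgals1, Lgals3, Anxa2, Anxa5, S100a11, Itga5, Yap1, Wwtr1, Tead1 and Ccn1), where 13.2% of all genes were called, 9.5% as higher and 3.72% as lower.

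**Figure D4:**
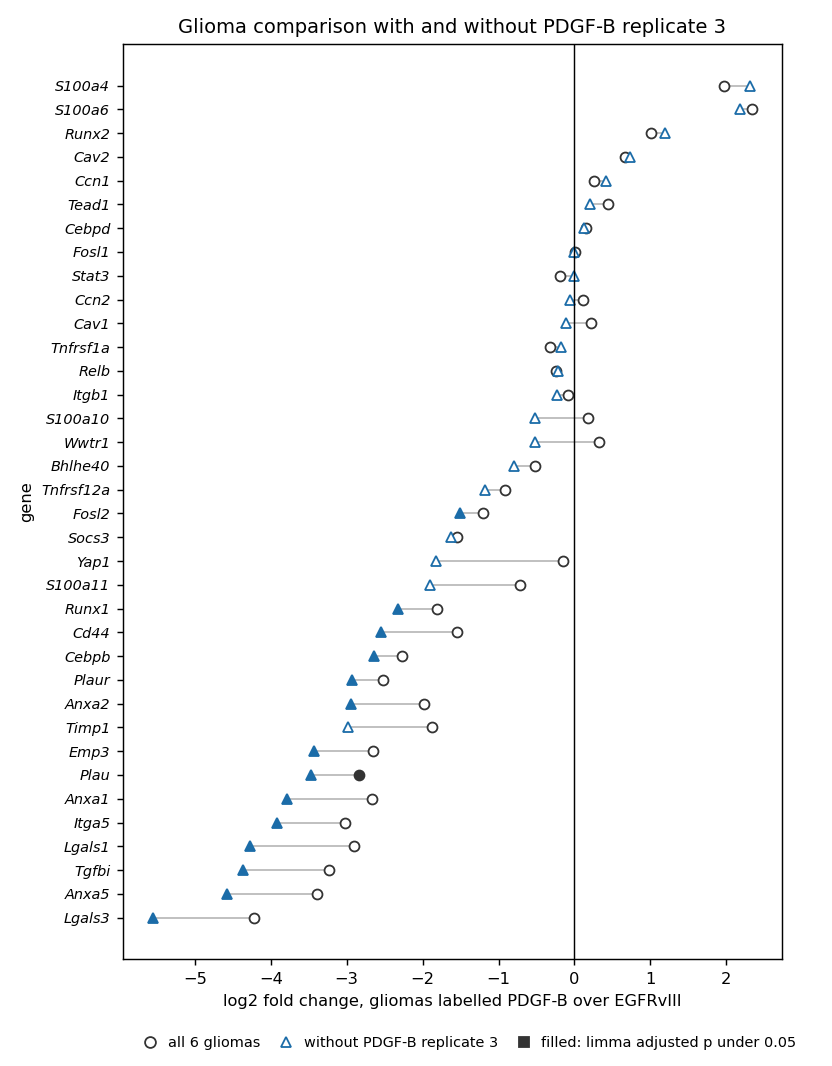
Log2 fold change of PDGF-B-labelled gliomas over EGFRvIII-labelled gliomas (horizontal axis) for the 36 genes (rows), with all 6 gliomas (circles) and without PDGF-B replicate 3 (triangles); filled symbols passed a limma adjusted p of 0.05. Plau alone is filled with all gliomas, 14 genes are filled without replicate 3, and Yap1 moves to -1.82 without passing.

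RNA of microglia and macrophages moved with the difference between the glioma groups and with replicate 3, and its part in these values was not tested. All 20 listed genes were measured, and 18 were called lower in PDGF-B-labelled gliomas, where 2.63% of all genes were. Their summed level was 628, 844 and 2484 CPM in PDGF-B-labelled replicates 1 to 3, 9560, 19706 and 8943 CPM in EGFRvIII-labelled gliomas, and 22.7 CPM in the culture. None of the 20 was at 0 in a glioma, and 6 were at 0 in the culture. Lyz2, a macrophage lysozyme, stood at 22.4, 19.2 and 613 CPM in PDGF-B-labelled gliomas and at 2358, 1785 and 821 CPM in EGFRvIII-labelled gliomas, and C1qa at 57.6, 81.6 and 219 CPM against 827, 2976 and 975 CPM. The microglial ADP receptor P2ry12 had 26.2, 28.5 and 26.5 CPM in PDGF-B-labelled gliomas, with no rise in replicate 3, against 150, 312 and 189 CPM in EGFRvIII-labelled gliomas, and Cx3cr1, the fractalkine receptor, at 39.2, 58.0 and 99.2 CPM against 520, 589 and 560 CPM. Ccr2 and Csf3r were the only measured genes of 10 listed for monocytes and neutrophils; Csf3r, which microglia also express, was called lower in PDGF-B-labelled gliomas, at 7.90, 9.24 and 21.3 CPM against 61.7, 111 and 114 CPM in EGFRvIII-labelled gliomas, with Ccr2 at 0, 0.123 and 0.593 CPM against 1.58, 5.28 and 1.64 CPM. Their summed level was 7.90 to 21.9 CPM in PDGF-B-labelled gliomas, 63.3 to 116 CPM in EGFRvIII-labelled gliomas and 0.0897 CPM in the culture. Endothelial genes (8 of 11 measured) summed to 31.2 to 62.4 CPM in PDGF-B-labelled gliomas, 28.7 to 40.2 CPM in EGFRvIII-labelled gliomas and 29.7 CPM in the culture. None was called between the glioma groups, where 3.35% of all genes were. Before adjustment 6 had a limma p under 0.05, against 16.7% of all genes. The median log2 fold change of the 8 was -1.51, and Vwf (von Willebrand factor), the most abundant, was the only one with a higher mean in PDGF-B-labelled gliomas, at 47.5, 49.9 and 11.7 CPM against 11.1, 3.74 and 8.72 CPM in EGFRvIII-labelled gliomas; it made up most of the sums in replicates 1 and 2 labelled PDGF-B. Flt1, a VEGF receptor and the next in abundance, stood at 1.19, 5.45 and 14.2 CPM against 4.70, 7.65 and 14.8 CPM. Kdr, the main VEGF receptor, stood at 2.13, 4.00 and 2.52 CPM in PDGF-B-labelled gliomas against 6.57, 9.86 and 7.88 CPM in EGFRvIII-labelled gliomas, and Tie1, an endothelial receptor kinase, at 0.175, 0.455 and 0.476 CPM against 2.38, 1.29 and 2.10 CPM. Mural and fibroblast genes (10 of 12 measured) summed to 8.40 to 22.0 CPM, 13.2 to 28.8 CPM and 24.0 CPM in PDGF-B-labelled gliomas, EGFRvIII-labelled gliomas and the culture. None was called, and the median log2 fold change was -0.91. Before adjustment 2 had a limma p under 0.05, against 16.7% of all genes. Of these 2, Rgs5, a pericyte marker, stood at 4.37, 2.67 and 5.10 CPM in PDGF-B-labelled gliomas against 1.26, 2.03 and 2.13 CPM in EGFRvIII-labelled gliomas, and Pdgfrb, a PDGF receptor, at 0.146, 0.606 and 1.01 CPM against 0.958, 1.58 and 3.95 CPM. The most abundant, Col1a1 and Tagln, reached at most 2.44 and 3.17 CPM in PDGF-B-labelled gliomas and 9.95 and 3.07 CPM in EGFRvIII-labelled gliomas. Of 6 T cell genes, Cd4 and Lck were measured, and summed to 0.909 to 3.45 CPM in PDGF-B-labelled gliomas, 1.02 to 10.0 CPM in EGFRvIII-labelled gliomas and 0.550 CPM in the culture. Neither was called, and both had a limma p under 0.05 before adjustment, against 16.7% of all genes. Lck stood at 1.92, 0.909 and 2.91 CPM in PDGF-B-labelled gliomas against 0.143, 0.508 and 0.327 CPM in EGFRvIII-labelled gliomas, and Cd4, which macrophages can also express, at 0.233, 0 and 0.532 CPM against 9.91, 0.508 and 0.954 CPM.

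**Figure D5:**
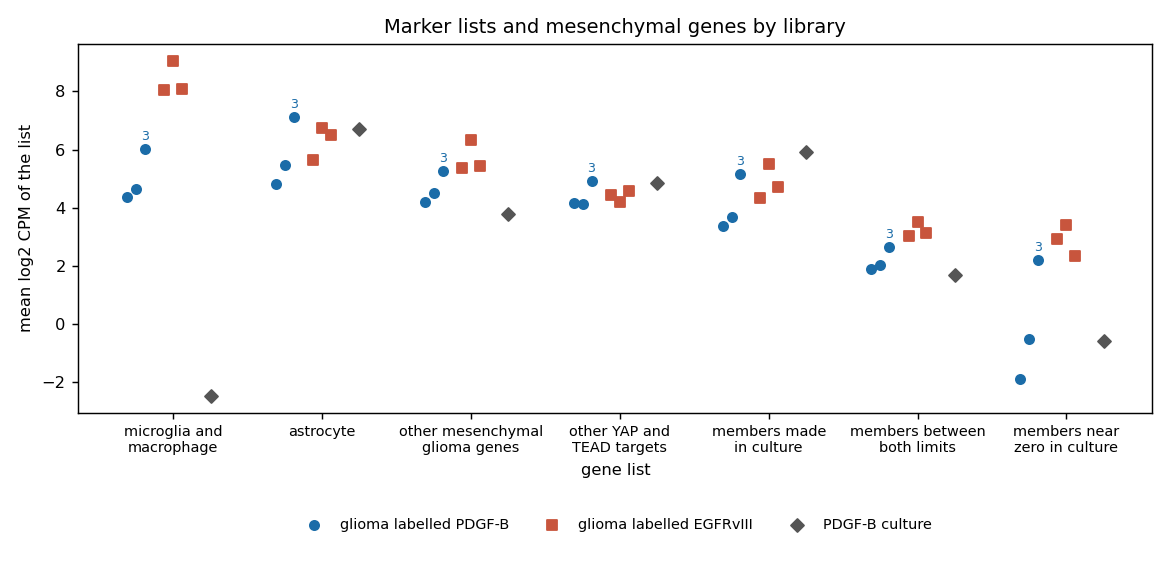
Mean log2 CPM per library of 4 gene lists and of the measured genes split by their level in the culture; circles are PDGF-B-labelled gliomas (3 marks replicate 3), squares EGFRvIII-labelled gliomas, diamonds the culture. The microglia and macrophage list lies at 4.35 to 6.02 in PDGF-B-labelled gliomas, 8.05 to 9.05 in EGFRvIII-labelled gliomas and -2.47 in the culture, and replicate 3 is the highest of its group in each list shown.

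Of 20 measured genes of a wider list of the mesenchymal state, out of 23 listed, 1 was called between the glioma groups, where 3.35% of all genes were, and 9 had a limma p under 0.05 before adjustment, against 16.7% of all genes. Without PDGF-B replicate 3, 4 of the 20 were called lower and none higher, where 5.59% and 1.77% of all genes were. Tlr2, a toll-like receptor, was the call with all gliomas, at 6.12, 13.3 and 22.2 CPM in PDGF-B-labelled gliomas and 71.8, 179 and 75.4 CPM in EGFRvIII-labelled gliomas (log2 fold change -3.01 ± 0.53, SE, adjusted p = 0.0328, and up to 0.133 when a glioma other than PDGF-B replicate 3 was left out). Fn1, fibronectin, the ligand of integrin alpha 5 beta 1, stood at 111, 191 and 150 CPM in PDGF-B-labelled gliomas, at 376, 1580.1 and 762 CPM in EGFRvIII-labelled gliomas, and at 77.9 CPM in the culture (log2 fold change between gliomas -2.39 ± 0.50, SE, adjusted p = 0.0528). The median log2 fold change of the 20 genes was -0.75. Against the culture, 3 of them were higher in PDGF-B-labelled gliomas (Tlr2, Tlr4 and Casp4), with none lower, where 7.73% and 1.73% of all genes were. Of 24 measured ligands, receptors and partners out of 26 listed, 10 had a limma p under 0.05 between the glioma groups before adjustment and 1 was called. The shares of all genes were 16.7% and 3.35%. Il6ra, the interleukin-6 receptor, fell in PDGF-B-labelled gliomas, at 2.80, 4.79 and 12.5 CPM against 43.0, 30.5 and 39.6 CPM (log2 fold change -2.74 ± 0.51, SE, adjusted p = 0.0377, and up to 0.141 when a glioma other than PDGF-B replicate 3 was left out). Osm, oncostatin M, a macrophage cytokine that signals through STAT3, stood at 1.89, 7.97 and 4.90 CPM in PDGF-B-labelled gliomas, at 20.6, 92.8 and 23.8 CPM in EGFRvIII-labelled gliomas, and at 0 CPM in the culture (log2 fold change between gliomas -3.07 ± 0.71, SE, adjusted p = 0.0680). Against the culture, 5 of the 24 were higher and 1 lower in PDGF-B-labelled gliomas, where 7.73% and 1.73% of all genes were. In EGFRvIII-labelled gliomas 4 were higher and 1 lower, where 8.2% and 1.34% of all genes were. Cavin1, a partner of caveolins, was the lower gene in both.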

How the data were processed

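RNA from 6 gliomas and 1 culture was sequenced on a BGISEQ-500; STAR, edgeR and mm10 are named in the submitters' processing notes. The deposited values are log2 CPM with a prior, per the file headers of 6 files; that of EGFRvIII replicate 3 names no unit and shares their floor of -4.12. Because all checked low values fell on steps of 0.01 read (within 0.001 read), reads with a prior count of 2 could be recovered, and the CPM printed are free of the prior. No source used here gives the read counter, the method of scaling or the gene filter applied before deposit. The effective library sizes recovered from the values differed from the sums of reads, so a scaling factor is part of the values. Symbols came from GENCODE M21 (GRCm38) for 17247 of 17422 identifiers. The log2 values were fitted over all genes with limma 3.58.1 in R 4.3.3 (trend, robust moderation), using the 6 gliomas for the glioma comparison and all 7 libraries for those with the culture, each with 4 residual degrees of freedom. The fit was tried on simulated counts with the same dispersion in every gene and no outlying replicate. That trial does not cover a spread such as that of PDGF-B replicate 3. Fold changes are differences of log2 values with the prior and understate those of low genes. The genes and lists were chosen with earlier results of these data known, and the promoters shown for Yap1, Wwtr1 and Cav2 after their values were seen. Genes described in every sample were those called or not overlapping between the glioma groups, called without PDGF-B replicate 3, or of the YAP pathway, and the other listed genes are given by mean or range where these show enough; of each other list the 2 genes of smallest p in the glioma comparison, and of each cell type list also the 2 most abundant. Tead2, Amot, Wwc1, the further YAP and TEAD targets named against the culture and the genes named only by their order among libraries were added after their values were seen. Alternatives changed the prior, scaling, filter, weights, moderation, threshold and libraries. The calls of the wider mesenchymal list in EGFRvIII-labelled gliomas against the culture are not reported here.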

Additional observations from a re-analysis of the deposited data

Results flagged for a closer look

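Plau differed between the glioma groups by -2.84 on the log2 scale, the only difference between them that passed the test among the 36 genes (limma adjusted p = 0.0349). The Plau call ended without trend and robust moderation. It also ended when any glioma but PDGF-B replicate 3 was left out (limma adjusted p up to 0.144). In Anxa5 every glioma labelled PDGF-B lay below the culture and every glioma labelled EGFRvIII above it; the difference between the groups was -3.40 on the log2 scale and did not pass (limma adjusted p = 0.107).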

How the results depend on the processing

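Between the glioma groups, 583 genes and 1 of the 36 were called. Leaving out 1 glioma gave 4 to 1282 genes and 0 to 14 of the 36. Without trend and robust moderation there were 224 genes and 0 of the 36, and at an adjusted p of 0.01 there were 7 and 0. With the replicate number as a block, 18 genes and 0 of the 36 were called. Same-numbered gliomas deviated from their group means with correlations of 0.175, -0.036 and -0.080. With 3 gliomas in each group these cannot decide whether the numbers pair the tumours. Only PDGF-B replicate 1 correlated best with its own number among the gliomas labelled PDGF-B. The comparisons with the culture have no number to block on. The gliomas labelled PDGF-B against the culture gave 1647 genes, 721 in a fit of these 2 groups alone, 553 with voom weights and 507 at 0.01, and 854 to 2303 genes with 2 to 14 of the 36 when 1 glioma was left out. Those labelled EGFRvIII gave 1663 genes, 721 with voom weights, 704 at 0.01 with 3 of the 36, and 1058 to 2030 genes with 4 to 12 of the 36 when 1 glioma was left out. Limits of 5 and 2 CPM or of 20 and 0.5 CPM put 5 or 1 genes near zero in the culture. The log2 fold change of Yap1 between the glioma groups turned to 0.029 with a prior of 8 and ran from -1.82 to 0.70 when 1 glioma was left out, that of Wwtr1 from -0.52 to 0.79 and that of Ccn2 from -0.38 to 0.72. Shifting libraries to the same median put the median of all genes at -0.20 for EGFRvIII-labelled gliomas minus the culture, against 0.013 as deposited, and at 0.13 between the glioma groups; against the culture it also called Wwtr1 lower in EGFRvIII-labelled gliomas and Tead1 lower in PDGF-B-labelled gliomas. The causes were not tested.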
